A study of Raphanus sativus with 8 samples.

Results

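The effect of gibberellin (GA) on each transcript was compared between the radish inbred lines NH-JS2 and NH-JS1. All 8 of the 8 RNA-seq libraries of the study entered this comparison, 2 in each of 4 groups: NH-JS2_GA, NH-JS2, NH-JS1_GA and NH-JS1. NH-JS2 bolts early and NH-JS1 bolts late. Plants of both lines, GA-treated or not, had received a short cold treatment as seedlings, and GA was sprayed on the leaves of young plants. Whole shoots were collected 6 days after the spray, at 1 time of day, and the shoots of several plants were pooled for each library. The labels give the stage of both GA groups as bolting and of both untreated groups as vegetative. Within a line, GA and the labelled stage thus cannot be told apart. The study reports, however, that most NH-JS1 plants sprayed with GA after the short cold treatment did not bolt. The label of NH-JS1_GA therefore may not describe the shoots that were collected. For GA-sprayed NH-JS2, the study shows bolted plants at a later day than that of collection. Whether the NH-JS2_GA shoots had bolted 6 days after the spray is not stated. Each line is 1 inbred stock.

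Each value is a count of reads on a unigene, an assembled radish transcript sequence, named by its closest Arabidopsis gene where it has one. Of 78395 unigenes in the table, 60161 had a match, to 17197 Arabidopsis genes. The measure of interest is the difference of GA effects, (NH-JS2_GA minus NH-JS2) minus (NH-JS1_GA minus NH-JS1), on the log2 scale. A positive difference means that GA moved the transcript further up, or less far down, in NH-JS2 than in NH-JS1. All libraries entered 1 edgeR model, a quasi-likelihood F-test gave p for this difference, and a unigene was called at a Benjamini-Hochberg adjusted p of at most 0.05 over all unigenes tested. Levels are counts scaled to a common library size, and with 2 pools a group each p-value measures only the spread between pools. Library totals ranged from 23757588 in NH-JS2 replicate 2 to 34165272 in NH-JS1 replicate 1, and every deposited count is at least 1, and 1 is taken here to stand for no detected read. That reading is an assumption, and every count of reads above the floor and every ratio built on one rests on it. Because whole shoots were used, fewer cells of a type and less RNA per cell cannot be told apart.

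GA is bound by GID1 receptors, and the complex leads to the breakdown of DELLA proteins, which otherwise hold back growth and flowering. In Arabidopsis, loss of DELLA activity raises the floral integrators SOC1, LFY and FT, and the cold of winter acts in parallel by silencing the floral repressor FLC. A line by treatment difference asks whether a transcript of this pathway, or any other, answered the same spray differently in the early- and the late-bolting line.

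Few single transcripts had a GA effect that differed between the lines by this test. Of 65934 unigenes tested, 9 (0.0137%) had a higher GA effect in NH-JS2 and 30 (0.0455%) a lower one, 39 in all. At an unadjusted p under 0.05 there were 1421 (2.16%) with a higher effect and 1361 (2.06%) with a lower one. DESeq2 called 62 unigenes (0.094%), of which 38 were shared with edgeR and all 38 had the same sign. In the same fit, edgeR called 42 unigenes (0.0637%) for GA within NH-JS2 and 54 (0.0819%) for GA within NH-JS1. The size of the differences was small for most unigenes. The median absolute difference was 0.187, and 3.26% of unigenes differed by more than 1 on the log2 scale, where the median standard error was 0.263.

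Every called unigene was called for GA in only 1 of the lines. The larger GA effect was in NH-JS2 for 23 of the 39 (59%, beside 52.2% of all unigenes tested), and all 23 were also called for GA within NH-JS2. It was in NH-JS1 for the other 16, and all 16 were called for GA within NH-JS1. The group that stood farthest from the other 3 was NH-JS2_GA for 18 unigenes, 17 of them below and 1 above. It was NH-JS2 for 5 unigenes, NH-JS1_GA for 3 and NH-JS1 for 13, and in all of these it lay below. Thus in 38 of the 39 (97.4%) the group that stood apart lay below the other 3, as it did in 51.5% of all unigenes tested. The contrast chose these unigenes, and these counts describe them.

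**Figure D1:**
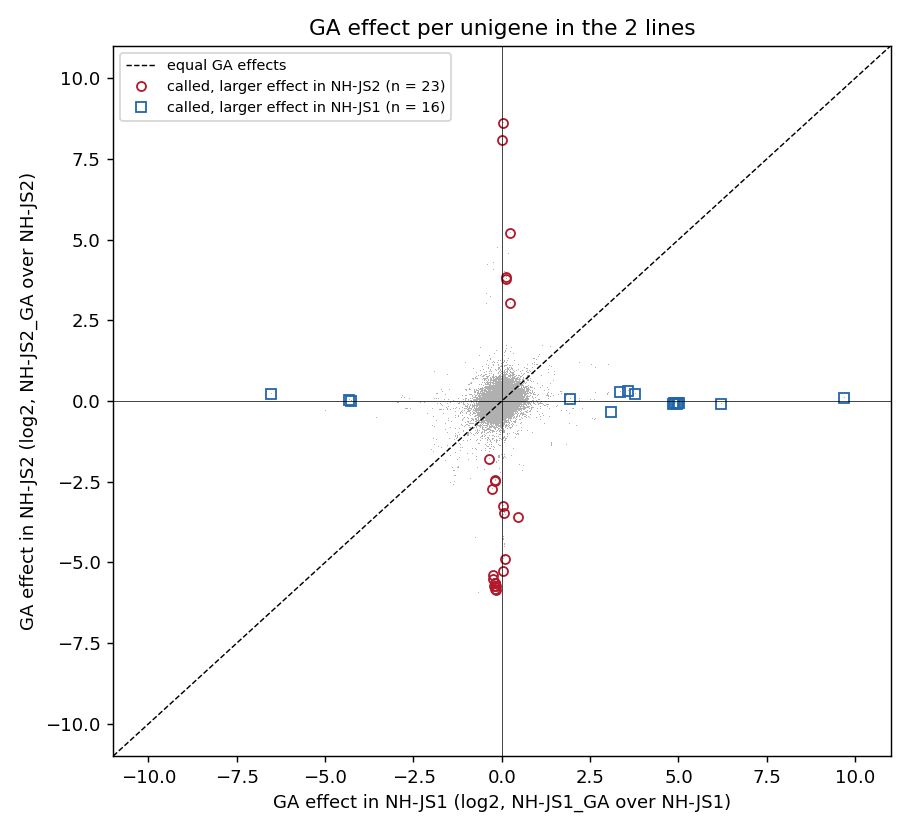
GA effect in NH-JS2 (vertical) against GA effect in NH-JS1 (horizontal), each on the log2 scale from edgeR, for 47318 unigenes with a mean scaled count of at least 50 (grey points) and for the 39 called unigenes (open symbols, 35 of which also pass that minimum). The dashed line marks equal effects. The 23 called unigenes with the larger effect in NH-JS2 lie along the vertical axis and the 16 with the larger effect in NH-JS1 along the horizontal one.

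The 39 unigenes are fewer than 39 independent signals. When unigenes with numbers at most 5 apart, or with log2 levels within 0.3 of each other in every library, were joined, they fell into 23 groups of 1 to 8 unigenes. These 23 need not be separate signals either, since the 3 called unigenes of AT3G17310 stayed in different groups. Near-identical entries can share or divide the same reads, so that single entries of a gene are uncertain. Only 25 of the 39 had an Arabidopsis match, to 15 genes, and 9 reached a mean scaled count of 500 in any group. None of the 15 genes is in the lists of GA and flowering genes described further on, which hold only a small part of the unigenes tested.

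The largest set of unigenes that fell with GA in NH-JS2 carried matches to AT2G17280, of the phosphoglycerate mutase family, whose members act on sugar phosphates and other phosphate esters. TBIU069267 had scaled counts of 4.12 and 2.76 in NH-JS2_GA, 188 and 218 in NH-JS2, 192 and 195 in NH-JS1_GA, and 200.3 and 236 in NH-JS1. Both NH-JS2_GA pools thus lay far below the 6 others, which overlapped. The GA effect was -5.84 in NH-JS2 (SE 0.25) and -0.17 in NH-JS1 (SE 0.14), a difference of -5.67 (95% CI -6.36 to -4.98, edgeR adjusted p = 0.0004463). Another 7 unigenes had the same raw counts of 4 and 3 reads in NH-JS2_GA and differences between -5.65 and -5.15: TBIU069268, TBIU069269, TBIU041688, TBIU069266, TBIU069264, TBIU069270 and TBIU069265. Of these, TBIU069264 carried a match to AT1G14800, annotated as a nucleic acid-binding protein, and 2 had none. The remaining copies of AT2G17280 behaved otherwise. TBIU066092 and TBIU066093 averaged 385 and 334 in NH-JS2_GA, against 384 and 332 in NH-JS2, with differences of -0.10 and -0.06. Summed over its 7 unigenes, AT2G17280 had 779 and 695 counts in NH-JS2_GA, 1579 and 1729 in NH-JS2, 1304 and 1200 in NH-JS1_GA, and 1306 and 1422 in NH-JS1. The difference of that sum was -1.04 and not called (adjusted p = 0.2271).

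A gene whose every copy followed the pattern was AT3G08950, a member of the SCO1/SenC family of copper proteins needed to assemble cytochrome c oxidase in mitochondria. Its most abundant unigene, TBIU039243, had 124 and 123 counts in NH-JS2_GA, 686 and 675 in NH-JS2, 598 and 559 in NH-JS1_GA, and 670.4 and 654 in NH-JS1. The pools of NH-JS2_GA were the lowest by a wide margin and almost identical to each other. GA effects were -2.46 in NH-JS2 and -0.20 in NH-JS1, and the difference was -2.27 (SE 0.14, edgeR adjusted p = 0.0005017). TBIU039244 and TBIU039242 differed by -2.28 and -2.45. The sum of the 3 unigenes gave 311 and 305 in NH-JS2_GA, 1745 and 1743 in NH-JS2, 1528 and 1442 in NH-JS1_GA, and 1725 and 1725 in NH-JS1.

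Other transcripts were low in NH-JS2_GA alone. AT3G09100 encodes an mRNA capping enzyme, which adds the 5′ cap to new transcripts. Its unigene TBIU039250 had 12.4 and 10.1 counts in NH-JS2_GA, 134 and 116 in NH-JS2, 144 and 144 in NH-JS1_GA, and 143 and 134 in NH-JS1, a difference of -3.53 (SE 0.25, edgeR adjusted p = 0.001248). Its neighbour TBIU039251 differed by -3.29, whereas the other 8 tested copies of AT3G09100 had differences between 0.07 and 0.36 and the sum over all 10 had -0.08. The calls in this capping enzyme gene thus rest on 2 of its 10 entries. AT3G08920, with a rhodanese domain of the kind that transfers sulfur, had 388 and 388 counts for TBIU039234 in NH-JS2_GA, 1242 and 1430 in NH-JS2, 823 and 755 in NH-JS1_GA, and 1104 and 930.4 in NH-JS1. The difference was -1.42 (SE 0.17, edgeR adjusted p = 0.04038), the smallest among the called unigenes, and NH-JS1_GA also lay below NH-JS1. AT3G09780, the CRINKLY4-related receptor kinase CCR1, had few reads, with 4.12 and 1.84 counts for TBIU036767 in NH-JS2_GA, 29.0 and 45.5 in NH-JS2, 46.3 and 39.9 in NH-JS1_GA, and 31.8 and 31.2 in NH-JS1. It was called with a difference of -4.04 (adjusted p = 0.0462).

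Of 2 unmatched unigenes, NH-JS2_GA had almost no reads. TBIU073630 had 1.03 and 1.84 scaled counts in NH-JS2_GA, 65.2 and 55.1 in NH-JS2, 66.4 and 53.9 in NH-JS1_GA, and 57.8 and 60.6 in NH-JS1. Above the floor of 1 per library this was 1 read in NH-JS2_GA and 101 in NH-JS2, a ratio of NH-JS2 to NH-JS2_GA of 123 that counting error alone leaves between 21.5 and 4900. For TBIU002622 the reads above the floor were 1 in NH-JS2_GA and 78 in NH-JS2, a ratio of 94.8 with limits of 16.5 and 3790. In both, the other 3 groups overlapped one another.

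**Figure D2:**
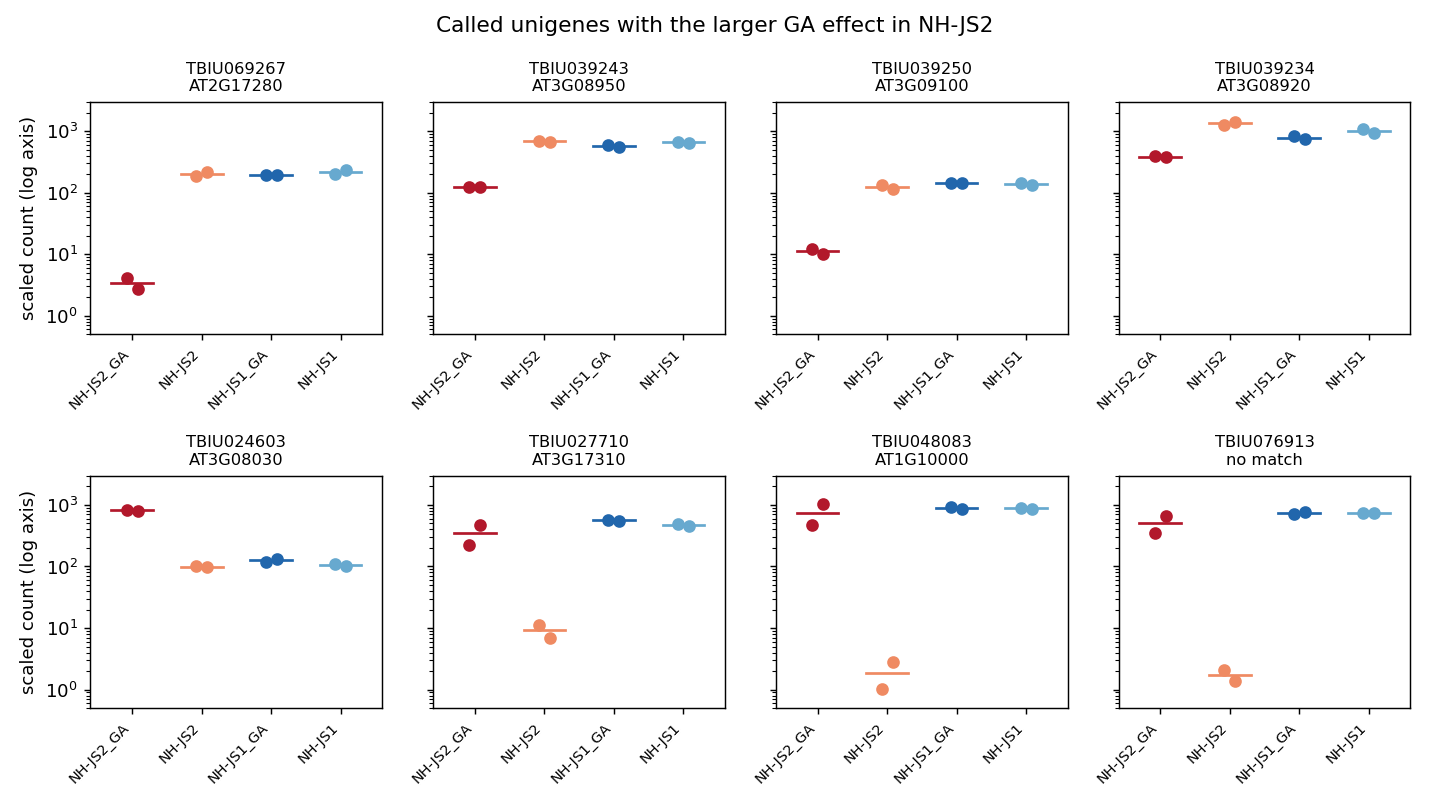
Scaled counts (log axis) of 8 called unigenes whose GA effect was larger in NH-JS2, in NH-JS2_GA, NH-JS2, NH-JS1_GA and NH-JS1; points are the 2 libraries of a group and the bar is their mean. In the first 4 panels NH-JS2_GA lies below the other groups, TBIU024603 is the 1 unigene where it lies above them, and in the last 3 panels NH-JS2 lies below them.

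One transcript rose with GA in NH-JS2 above the level of all other groups. AT3G08030 belongs to the DUF642 family of cell wall proteins. TBIU024603 had 840.4 and 792 counts in NH-JS2_GA, 102 and 96.4 in NH-JS2, 119 and 132 in NH-JS1_GA, and 112 and 100 in NH-JS1. Both NH-JS2_GA pools stood above all others, which lay within a narrow band. The GA effect was 3.03 in NH-JS2 and 0.24 in NH-JS1, with a difference of 2.79 (SE 0.17, edgeR adjusted p = 0.0005313). The second copy, TBIU011516, went the same way with a difference of 0.63 that was not called. As a sum, AT3G08030 had 1130 and 1061 counts in NH-JS2_GA, 240.1 and 245 in NH-JS2, 367 and 356 in NH-JS1_GA, and 316 and 278 in NH-JS1.

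In 5 further unigenes that rose with GA in NH-JS2, untreated NH-JS2 had little RNA and the 3 other groups had much of it. AT3G17310, annotated as an S-adenosyl-methionine-dependent methyltransferase, had 3 called copies. TBIU027710 had 226 and 468.5 counts in NH-JS2_GA, 11.4 and 6.89 in NH-JS2, 570 and 555 in NH-JS1_GA, and 492 and 461 in NH-JS1. Untreated NH-JS2 lay below all others. The NH-JS2_GA pools lay far apart, the lower one below both NH-JS1 groups and the higher one within the range of NH-JS1. The difference of GA effects was 4.95 (SE 0.54, edgeR adjusted p = 0.01758), and TBIU022910 and TBIU036727 gave 3.74 and 3.65. Another 4 copies, not called by edgeR, had differences between 3.56 and 4.37, and 1 copy, TBIU015003, had 0.28. The sum over the 8 copies was 1221 and 2055 in NH-JS2_GA, 298 and 286 in NH-JS2, 2219 and 2241 in NH-JS1_GA, and 2077 and 2006 in NH-JS1. The difference of 2.36 for that sum fell short of the threshold (adjusted p = 0.09569).

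The same shape was steeper in a pair of unigenes. TBIU048083, matched to AT1G10000 of the ribonuclease H-like superfamily, had 470 and 1019 counts in NH-JS2_GA, 1.03 and 2.75 in NH-JS2, 941 and 869 in NH-JS1_GA, and 903 and 860 in NH-JS1. TBIU076913, with no match, had 349 and 669 in NH-JS2_GA, 2.07 and 1.38 in NH-JS2, 717 and 770.1 in NH-JS1_GA, and 744 and 744 in NH-JS1. In NH-JS2 each had 1 read above the floor over both libraries, against 1561 and 1064 in NH-JS2_GA, so that the ratios of 1280 and 876 carry limits of 230 to 50800 and 157 to 34600. The fitted differences of 8.58 (adjusted p = 0.003433) and 8.07 (adjusted p = 0.001966) depend on how such a floor is handled. In all 5 unigenes NH-JS2_GA replicate 1 had less than NH-JS2_GA replicate 2. TBIU048083 was the only called unigene of the 27 tested for AT1G10000, whose differences ran from -2.718 to 8.58.

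In NH-JS1 the commonest pattern was a transcript all but missing without GA. TBIU071561, with no match, had 928 and 1031 counts in NH-JS2_GA, 1113 and 709 in NH-JS2, 1158 and 494 in NH-JS1_GA, and no read above the floor in either NH-JS1 library. Set against 3 reads per library, its level in NH-JS1_GA was at least 313-fold higher than in NH-JS1. TBIU051987, matched to AT3G42170, a protein with the domains of a hAT-type transposase, had 166 and 147 in NH-JS2_GA, 177 and 153 in NH-JS2, against 80.5 and 67.8 in NH-JS1_GA. It too was at the floor in both NH-JS1 libraries, so that NH-JS1_GA was at least 27.8-fold higher. These had the lowest fitted differences of all, -9.59 (edgeR adjusted p = 0.006132) and -6.29 (edgeR adjusted p = 0.000556). TBIU051987 was the only called unigene of the 86 tested for AT3G42170. Their differences reached up to 1.094, and their sum differed by -0.12.

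A run of 6 consecutive unigenes, TBIU025188 to TBIU025193, formed 1 more such group. TBIU025193, the 1 of them with a match, is nearest to AT1G74150, a kelch repeat protein, and had 135 and 124 counts in NH-JS2_GA, 151 and 123 in NH-JS2, 58.4 and 85.8 in NH-JS1_GA, and 2.51 and 1.83 in NH-JS1. Its GA effect was -0.09 in NH-JS2 and 4.96 in NH-JS1, and the 6 differences ran from -5.08 for TBIU025189 to -4.94. Over the 2 libraries each had 3 reads above the floor in NH-JS1, and the ratios of NH-JS1_GA to NH-JS1 were 49.9 to 56 with counting limits that lay between 16.7 and 275. The 9 other tested copies of AT1G74150 had differences between -1.12 and 0.27 and none was called.

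Matched genes with more reads showed the same form in NH-JS1. AT5G12000 encodes a protein kinase with an adenine nucleotide hydrolase-like domain, and TBIU025707 had 199.8 and 181 counts in NH-JS2_GA, 158 and 169 in NH-JS2, 86.6 and 108 in NH-JS1_GA, and 8.38 and 5.51 in NH-JS1. NH-JS1_GA thus lay between the untreated NH-JS1 and the NH-JS2 level, and the difference was -3.55 (SE 0.30, edgeR adjusted p = 0.00367). AT5G01320 belongs to the pyruvate decarboxylases, which divert pyruvate into fermentation. TBIU011131 had 421 and 445 counts in NH-JS2_GA, 424 and 412 in NH-JS2, 249 and 243 in NH-JS1_GA, and 67.9 and 61.5 in NH-JS1. The NH-JS2 groups overlapped, whereas the NH-JS1 groups did not, and the difference was -1.87 (SE 0.16, edgeR adjusted p = 0.003433). Both genes have 1 unigene, so their sums repeat these values.

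Of the remaining unigenes low in NH-JS1, TBIU028047 and TBIU028048 had no match and differences of -3.08 and -3.26. TBIU028048 had 297 and 308 counts in NH-JS2_GA, 253 and 236 in NH-JS2, 52.3 and 53.9 in NH-JS1_GA, and 5.87 and 2.75 in NH-JS1. TBIU019114, another of the 315 tested unigenes matched to AT1G14800, had 37.1 and 42.3 in NH-JS2_GA, 50.7 and 49.6 in NH-JS2, 26.2 and 27.9 in NH-JS1_GA, and 2.51 and 3.67 in NH-JS1, a difference of -3.42. It was the 1 unigene called by edgeR that DESeq2 did not call.

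Of the 39, 3 unigenes fell with GA in NH-JS1. The most abundant carried a match to AT1G69870, the nitrate transporter NRT1.7, which in Arabidopsis loads nitrate from old leaves into the phloem. TBIU018052 had 505 and 449 counts in NH-JS2_GA, 539 and 420.2 in NH-JS2, 11.1 and 13.97 in NH-JS1_GA, and 205 and 282 in NH-JS1. The NH-JS2 groups overlapped and NH-JS1_GA was far below every other library, with GA effects of -0.01 in NH-JS2 and -4.27 in NH-JS1, and a difference of 4.25 (SE 0.33, edgeR adjusted p = 0.002031). A second copy, TBIU049502, averaged 1367 in NH-JS2_GA, 1318 in NH-JS2, 117 in NH-JS1_GA and 728 in NH-JS1. Its difference of 2.68 missed edgeR's threshold (adjusted p = 0.06114), and the 5 others ran from -0.35 to 1.33.

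The other 2 such unigenes have no described function. TBIU018867, matched to AT4G03740, had 88.6 and 105 counts in NH-JS2_GA, 96.2 and 93.7 in NH-JS2, 3.02 and 2.99 in NH-JS1_GA, and 49.4 and 75.2 in NH-JS1, with a difference of 4.34 (SE 0.44, edgeR adjusted p = 0.01097). The 19 tested unigenes of AT4G03740 had differences from -3.825 to 4.342, so copies went both ways, and their sum differed by 0.38. TBIU056732 had 134 and 133 in NH-JS2_GA, 128 and 99.2 in NH-JS2, 4.03 and 2.99 in NH-JS1_GA, and 194 and 481 in NH-JS1. The untreated NH-JS1 pools of TBIU056732 differed from each other by more than 2 times, and its difference was 6.75 (SE 0.75, edgeR adjusted p = 0.01904).

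**Figure D3:**
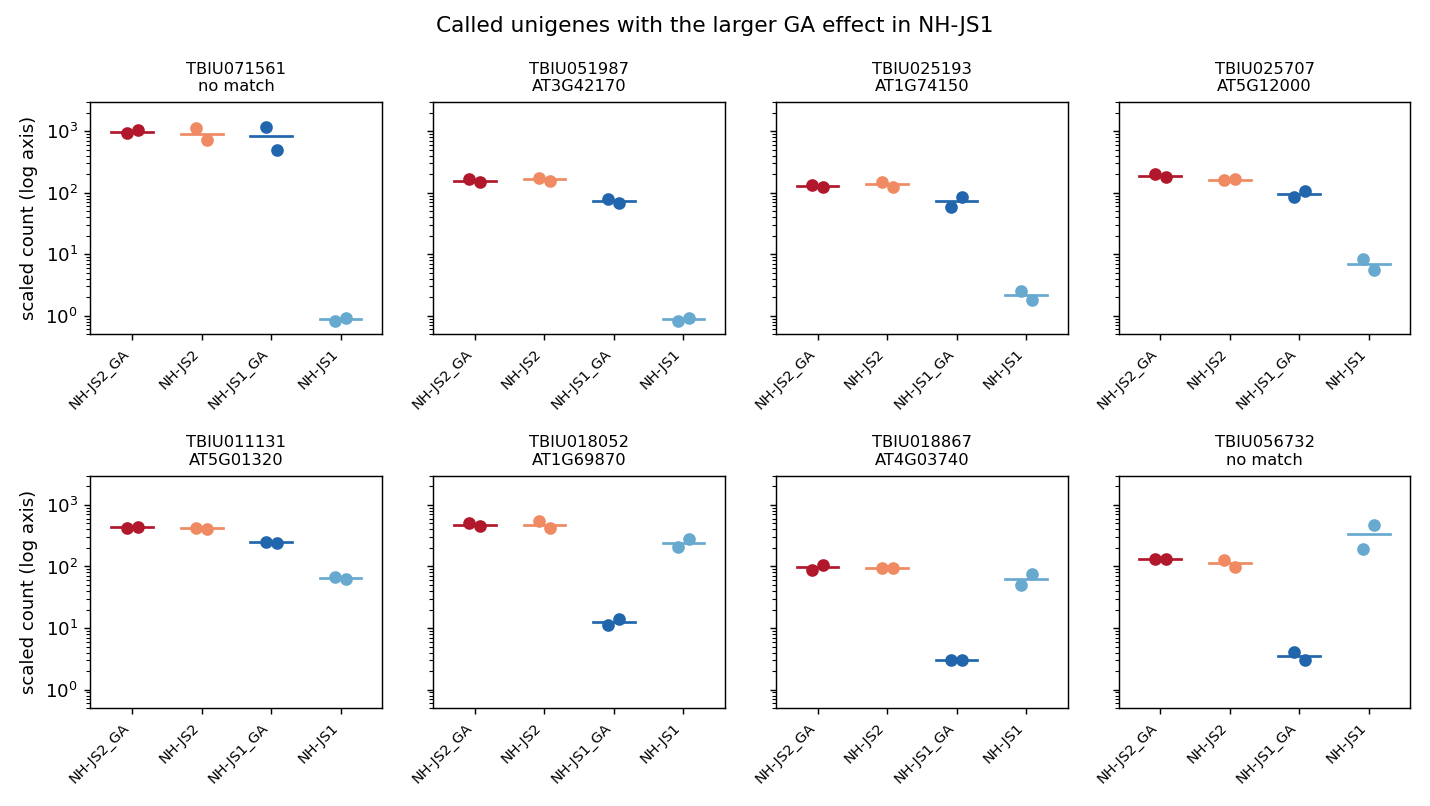
Scaled counts (log axis) of 8 called unigenes whose GA effect was larger in NH-JS1, in NH-JS2_GA, NH-JS2, NH-JS1_GA and NH-JS1; points are the 2 libraries of a group and the bar is their mean. NH-JS1 is lowest in the first 5 panels and NH-JS1_GA in the last 3, while NH-JS2_GA and NH-JS2 stay close together throughout.

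Summing counts over all unigenes of an Arabidopsis gene left 4 genes (0.0243% of 16483) called, 1 with a higher and 3 with a lower GA effect in NH-JS2. At an unadjusted p under 0.05 there were 349 (2.12%) higher and 333 (2.02%) lower. The higher one was AT3G08030, with a difference of 1.90 (SE 0.16, edgeR adjusted p = 0.01201). The lower ones were AT3G08950 at -2.29 (SE 0.13, edgeR adjusted p = 0.0007312), AT5G12000 at -3.53 (SE 0.33, edgeR adjusted p = 0.01717) and AT5G01320 at -1.85 (SE 0.18, edgeR adjusted p = 0.01717). With each library left out in turn, the call of AT3G08950 held in 8 of 8 cases (highest adjusted p = 0.02651). AT3G08030 held in 2 (highest adjusted p = 0.124), AT5G12000 in 3 (0.241) and AT5G01320 in 1 (0.2573). For the 15 genes behind the called unigenes, the sum was called only for these 4, and for AT1G69870, AT1G10000 and AT1G14800 it differed by 1.405, 0.74 and -0.19. AT3G09780, which has a single unigene, had a sum of -4.02 that was not called among the sums (adjusted p = 0.1307).

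Of the 39 unigenes, 19 were called with any 1 library left out, among them all 8 of the AT2G17280 group, TBIU024603, TBIU018052, TBIU051987 and TBIU076913. Those that depended on 1 library kept their sign. The 3 AT3G17310 unigenes were called in only 2 or 3 of the 8 cases, and adjusted p reached 0.1453 for TBIU027710. TBIU036767, TBIU039234 and TBIU019114 were each called in 1 case, with adjusted p as high as 0.2813, 0.2773 and 0.2184. TBIU056732 was called in 2 cases and TBIU018867 in 5 (highest adjusted p = 0.1956 and 0.1236). Leaving out either NH-JS1 library ended the calls of TBIU071561 and of the 6 unigenes TBIU025188 to TBIU025193 (highest adjusted p = 0.0951 for TBIU071561 and 0.1069 for TBIU025191), and of TBIU028047 (0.09248). NH-JS1 replicate 2 alone did so for TBIU028048, TBIU011131 and TBIU025707 (adjusted p = 0.07562, 0.05447 and 0.05419), and NH-JS2 replicate 1 for TBIU048083 (0.05593).

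Whether GA acted on flowering differently in the lines was examined for 26 genes that the study singled out, of which 24 had a unigene in the table and 23 a sum that could be tested. EdgeR called 0 of the 23 and DESeq2 called 0, beside 0.0243% and 0.14% of all sums tested. At an unadjusted p under 0.05, 3 were higher (FT, MYB28 and MYB29) and 1 was lower (VI1), beside 2.12% and 2.02% of all sums. The study chose these genes for their differences in the same samples or for their known part in flowering and GA pathways, and it also measured many of them by qPCR. By sign alone, 11 were higher and 12 lower.

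FT, the mobile signal that brings flowering from the leaf to the shoot tip, had the highest estimate. It had 61.7 and 121 counts in NH-JS2_GA, 20.4 and 16.4 in NH-JS2, 2.01 and 1.00 in NH-JS1_GA, and 1.68 and 2.78 in NH-JS1. Both NH-JS2_GA pools were above both NH-JS2 pools, and FT in NH-JS1 stayed within a few reads of the floor with or without GA. GA effects were 2.30 in NH-JS2 (SE 0.37, edgeR adjusted p = 0.1281) and -0.51 in NH-JS1 (SE 1.01), and the difference was 2.81 (95% CI 0.23 to 5.39, edgeR adjusted p = 1). At this depth the GA effect in NH-JS1 could not be read.

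SOC1, an integrator that acts downstream of GA and of FT, had more RNA in all NH-JS2 pools than in any NH-JS1 pool. Its 2 unigenes summed to 3237 and 4452 counts in NH-JS2_GA, 3413 and 2098 in NH-JS2, 502 and 384 in NH-JS1_GA, and 354 and 429.5 in NH-JS1. Treated and untreated pools overlapped within each line, and the difference of GA effects was 0.30 (95% CI -0.51 to 1.12). FLC, the repressor silenced by cold, had 3810 and 3662 in NH-JS2_GA, 4981 and 4135 in NH-JS2, 5691 and 6026 in NH-JS1_GA, and 6634 and 6797 in NH-JS1. It was lower with GA in each line, by -0.29 in NH-JS2 and -0.20 in NH-JS1, neither called, and the difference was -0.09 (95% CI -0.45 to 0.27). These FLC values are sums over 8 unigenes. TBIU004737, an FLC unigene that the study named, had a difference of -0.34 that was not called. With 1 library left out it ranged from -0.47 to -0.19. For VRN1, which maintains FLC silencing, and AGL19, an activator outside the FLC route, the differences were 0.02 (95% CI -0.30 to 0.34) and 0.10 (95% CI -0.24 to 0.44). Among other integrators summed in the same way, AGL24 had 0.23, FD 0.12, FUL -0.02 and the repressor SVP -0.07 and every 95% interval held 0.

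MYB29 and MYB28 regulate the synthesis of aliphatic glucosinolates, the mustard oil precursors of the family. MYB29 had 1062 and 910 counts in NH-JS2_GA, 811 and 853 in NH-JS2, 1071 and 791 in NH-JS1_GA, and 1357 and 1438 in NH-JS1. With GA it was above untreated in NH-JS2 and below in NH-JS1, without overlap in either line, and the difference was 0.83 (95% CI 0.35 to 1.31, edgeR adjusted p = 1). MYB28 followed with 0.40 (95% CI 0.07 to 0.73, edgeR adjusted p = 1). VI1, a vacuolar invertase that splits sucrose, had 389 and 396 counts in NH-JS2_GA, 1000 and 808 in NH-JS2, 964 and 764 in NH-JS1_GA, and 1359 and 1261 in NH-JS1. It fell with GA in NH-JS2 (-1.21, edgeR adjusted p = 0.0367), was lower without being called in NH-JS1 (-0.60), and the difference was -0.60 (95% CI -1.07 to -0.14, edgeR adjusted p = 1).

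The clock and light genes had intervals that held 0. LHY had a difference of -0.41 (95% CI -1.42 to 0.59), GI -0.14 (95% CI -0.79 to 0.51), CO, the activator of FT in long days, -0.51 (95% CI -1.99 to 0.97), the repressor TEM1 -0.33 (95% CI -1.13 to 0.48) and ELF3 0.27 (95% CI -0.11 to 0.65). Of the GA-responsive genes, GASA6 had 0.34 (95% CI -0.15 to 0.84), EXPA1 -0.17 (95% CI -1.13 to 0.80), PIF4 -0.14 (95% CI -0.82 to 0.54), GNC 0.10 (95% CI -0.33 to 0.53), MYB59 0.30 (95% CI -0.05 to 0.64) and BETAFRUCT4 -0.32 (95% CI -0.81 to 0.17). A missed threshold does not show that the lines answered alike, and the intervals give the differences that these pools allow.

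**Figure D4:**
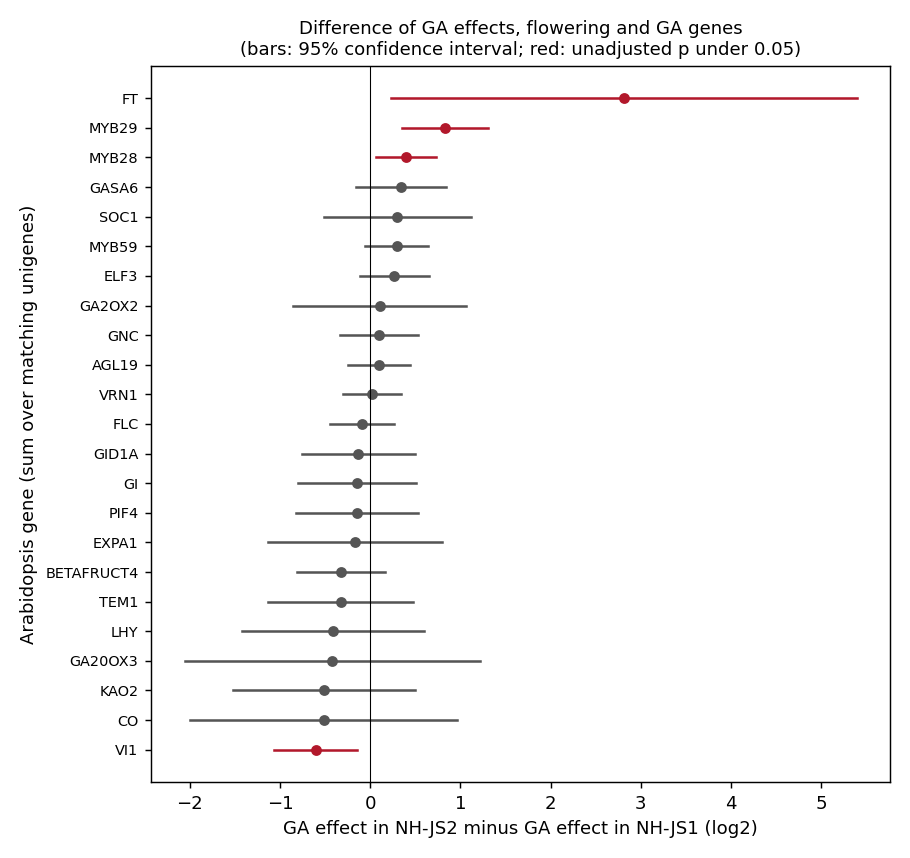
Difference of GA effects (log2, NH-JS2 minus NH-JS1) for the 23 flowering and GA genes that could be tested, as sums over matching unigenes, with 95% confidence intervals from edgeR. Intervals of FT, MYB29, MYB28 and VI1 (red) leave out 0 before adjustment, and none of the 23 passed the adjusted threshold.

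GA feeds back on its own pathway in plants, lowering synthesis and receptor genes and raising genes of deactivation. In these libraries none of the genes that follow was called for GA in either line or for the difference. GA2OX2, which inactivates GA, had 587 and 718 counts in NH-JS2_GA, 472 and 210.5 in NH-JS2, 651 and 637 in NH-JS1_GA, and 334 and 399 in NH-JS1. Each treated pool was above each untreated pool of its line, by 0.92 in NH-JS2 and 0.81 in NH-JS1, and the difference was 0.10 (95% CI -0.86 to 1.07). The receptor GID1A had 399 and 325 in NH-JS2_GA, 737 and 492 in NH-JS2, 385 and 348 in NH-JS1_GA, and 539 and 599 in NH-JS1. Its estimates were -0.77 in NH-JS2 and -0.64 in NH-JS1, with a difference of -0.13 (95% CI -0.76 to 0.49). The receptors GID1B and GID1C differed by -0.12 and -0.16. The synthesis enzymes KAO2 and GA20OX3 differed by -0.51 (95% CI -1.52 to 0.50) and -0.42 (95% CI -2.05 to 1.21). GA20OX3 had 226 and 52.6 counts in the 2 NH-JS2_GA pools, so its value rests on pools that lay far apart. The DELLA genes RGA, RGL1, RGL2 and RGL3 gave -0.12, 0.01, 0.09 and -0.41.

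Gene lists were then described by the share of their unigenes at an unadjusted p under 0.05, beside 4.22% among all unigenes. In the 19 lists, edgeR and DESeq2 each called 0 unigenes at an adjusted p of 0.05, beside 0.0592% and 0.094% of all unigenes tested. With shares this low, lists of this size would hold few calls or none, so these counts of 0 say little about the lists. GA biosynthesis had 0 of 13 unigenes past the unadjusted threshold, with a median difference of -0.37, beside -0.0059 over all unigenes. Its median was -0.62 without NH-JS2_GA replicate 1, -0.54 without NH-JS2 replicate 2 and -0.036 without NH-JS2 replicate 1. Its counts also depended on single libraries. GA deactivation had 0 of 6 and GA receptors, DELLA proteins and signalling 0 of 28, with medians of -0.10 and -0.04. The members with the lowest p were a KAO2 unigene, TBIU020581 (-0.74), a GA2OX6 unigene, TBIU065303 (-0.81), and an RGL3 unigene, TBIU021622 (-0.52), each with an edgeR adjusted p of 0.9999. Without NH-JS2 replicate 1 the median of the deactivation list was 0.93. For expansins and xyloglucan enzymes, which loosen the cell wall, 0 were higher and 1 of 51 was lower, an XTH22 unigene, TBIU009872 (-0.58, edgeR adjusted p = 0.9999). The median of that list was -0.19 with all libraries, -0.41 without NH-JS2 replicate 1 and 0.05 without NH-JS2 replicate 2. Its counts moved as well.

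The GA-responsive genes stood above the background with all libraries, with 5 unigenes higher and 6 lower of 44 (25%) and a median of -0.00047. Summed per gene, 3 were higher and 2 lower of 16, with a median of 0.12, where 4.14% of all sums passed. The counts depended on single libraries. The share past the unadjusted threshold was larger without NH-JS2 replicate 2, and smaller without NH-JS1 replicate 2 or NH-JS2_GA replicate 1. The medians in these 3 cases were 0.23, 0.037 and 0.016. GASA5, a small cysteine-rich peptide of the family first found as GA-stimulated, had the lowest p, with 40.2 and 20.3 counts for TBIU054501 in NH-JS2_GA, 25.8 and 19.3 in NH-JS2, 8.05 and 9.97 in NH-JS1_GA, and 31.8 and 31.2 in NH-JS1. The NH-JS2 groups overlapped, while NH-JS1_GA lay below NH-JS1, and the difference was 2.18 (SE 0.52, edgeR adjusted p = 0.7379). This list holds genes that the study chose on these samples and is not independent of them.

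The ageing pathway had 8 of 60 unigenes higher and 0 lower (13.3%), with a median of 0.21. Many of these are copies of the same gene. Summed per gene, 1 of 12 was higher and 0 lower, with a median of 0.12. SPL9, a transcription factor that promotes flowering as miR156 declines, carried the lowest p. Summed over its unigenes it had 1003 and 951 counts in NH-JS2_GA, 722 and 627 in NH-JS2, 1194 and 919 in NH-JS1_GA, and 1365 and 1338 in NH-JS1. With GA it was above untreated in NH-JS2 and below in NH-JS1, and the difference was 0.89 (95% CI 0.45 to 1.33, edgeR adjusted p = 0.7544). Its unigene TBIU040690 gave 0.90 (edgeR adjusted p = 0.9832). Of the other sums of that list, SPL15 had 0.81, SPL10 0.31 and SPL11 0.22, whereas SPL4 had -0.47 and the repressor TOE1 -0.14, and the 95% interval of each held 0.

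Galactinol, raffinose and invertase genes had 1 unigene higher and 8 lower of 29 (31%). Their median was 0.08, and it lay between -0.23 and 0.12 when 1 library was left out. It was 0.12 without NH-JS1 replicate 2, -0.14 without NH-JS2_GA replicate 1, -0.04 without NH-JS2_GA replicate 2 and -0.23 without NH-JS1_GA replicate 2. The counts of unigenes also depended on single libraries. Summed per gene, 1 was higher and 3 lower of 9, with a median of 0.20. DIN10, of the raffinose synthase family, had 3220 and 3247 counts as a sum in NH-JS2_GA, 3733 and 3854 in NH-JS2, 1569 and 2425 in NH-JS1_GA, and 1367 and 1056 in NH-JS1. Its pools lay below untreated in NH-JS2 and above untreated in NH-JS1, with a difference of -0.95 (95% CI -1.58 to -0.32, edgeR adjusted p = 1). Its unigene TBIU010149 gave -1.10 (edgeR adjusted p = 0.8706). In the opposite direction, GOLS2, a galactinol synthase, had 0.69 (95% CI 0.02 to 1.36, edgeR adjusted p = 1).

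Ribosomal proteins formed the largest list, with 6 unigenes higher and 94 lower of 809 (12.4%) and a median of -0.27. Summed per gene, 3 were higher and 13 lower of 235, with a median of -0.25. An RPL18 unigene, TBIU060966, had the lowest p, with 148 and 131 counts in NH-JS2_GA, 203 and 242.5 in NH-JS2, 232 and 262 in NH-JS1_GA, and 176 and 209 in NH-JS1 (difference -1.03, edgeR adjusted p = 0.5171). One library moved with this list. Its summed level was 805620 and 726660 in NH-JS2_GA, 821210 in NH-JS2 replicate 1 and 1065100 in NH-JS2 replicate 2, against 758890 and 796750 in NH-JS1_GA and 776380 and 755110 in NH-JS1. NH-JS2 replicate 2 also had the lowest total count and the highest summed leaf markers, 1425600 against 775840 to 1029100 in the others. Its part in the result was not tested further than by leaving it out. Without that library the median over ribosomal unigenes was -0.11, and without NH-JS2 replicate 1 instead it was -0.42. The counts past the unadjusted threshold moved as well.

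The other pathway lists had 0 to 2 unigenes past the unadjusted threshold with all libraries. Of floral integrators and meristem identity, 1 of 25 was higher, the FT unigene TBIU006696, and 0 were lower. The vernalization list had 2 of 82 higher and 0 lower, with LHP1 at the lowest p (TBIU003331, 0.49). Photoperiod and clock had 0 higher and 2 lower of 101, led by phytochrome A (TBIU022457, -0.54), and the autonomous pathway 0 higher and 1 lower of 39, a REF6 unigene (TBIU009765, -0.69). Defence had 2 higher and 0 lower of 75, with SARD1 at the lowest p (TBIU015891, 1.45). Cytokinin had 0 higher and 1 lower of 41, the synthesis gene IPT3 (TBIU043073, -1.55), cold-induced genes 1 higher and 0 lower of 8, KIN2 (TBIU046842, 0.95), and cell cycle 0 of 37, with MCM7 at the lowest p (TBIU063055, -0.73). For each of these 8 unigenes the edgeR adjusted p was 0.9999. Leaving out NH-JS2 replicate 1 raised several of these counts, where 8.26% of all unigenes passed. Integrators then had 5 higher and 0 lower of 25 (20%), defence 10 higher and 2 lower of 77 (15.6%), cytokinin 6 higher and 2 lower of 42 (19%) and cell cycle 0 higher and 4 lower of 37 (10.8%). With all libraries the medians of photoperiod and clock, cytokinin, cold-induced genes and defence were -0.08, 0.05, 0.12 and 0.08. Without NH-JS2 replicate 2 the median was -0.13 for photoperiod and clock and -0.05 for cytokinin. Without NH-JS1_GA replicate 1 it was 0.52 for cold-induced genes, 0.04 for defence and -0.05 for cytokinin.

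The labelled tissue was checked against tissue markers. Leaf markers were abundant in every library, with 7 of the 10 genes found and 0 of 29 unigenes past the unadjusted threshold. Their median difference was -0.17 with all libraries and 0.06 without NH-JS2 replicate 2. Without NH-JS2 replicate 1 it was -0.32, and 10 of the 29 were lower (34.5%, beside 8.26% of all). With all libraries the lowest p was that of an LHB1B1 unigene, TBIU014761 (-0.36). Root markers summed to 682 to 770.3 in NH-JS2_GA, 581 to 809 in NH-JS2, 801 to 916 in NH-JS1_GA, and 827 to 857 in NH-JS1. Most of it came from SHR, which shoots also express, WER had 10.2 to 88.4, and 5 of the 7 root genes had no unigene in the table. The root marker unigene with the lowest p was TBIU051948 of SHR (-0.65). Floral organ identity genes summed to 318 and 332 in NH-JS2_GA, 269 and 237 in NH-JS2, 23.1 and 22.9 in NH-JS1_GA, and 15.9 and 15.6 in NH-JS1. The summed level thus separated the lines with and without GA, but not every member did so to this degree. SEP1 summed to 27.8 and 24.9 in NH-JS2_GA, 40.7 and 26.0 in NH-JS2, 22.2 and 12.1 in NH-JS1_GA, and 14.3 and 11.1 in NH-JS1. Most of the gap came from other members, which had few counts in NH-JS1. Of the 4 unigenes tested, 0 passed for the difference of GA effects (lowest p for SEP1, TBIU060974, -1.35).

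**Figure D5:**
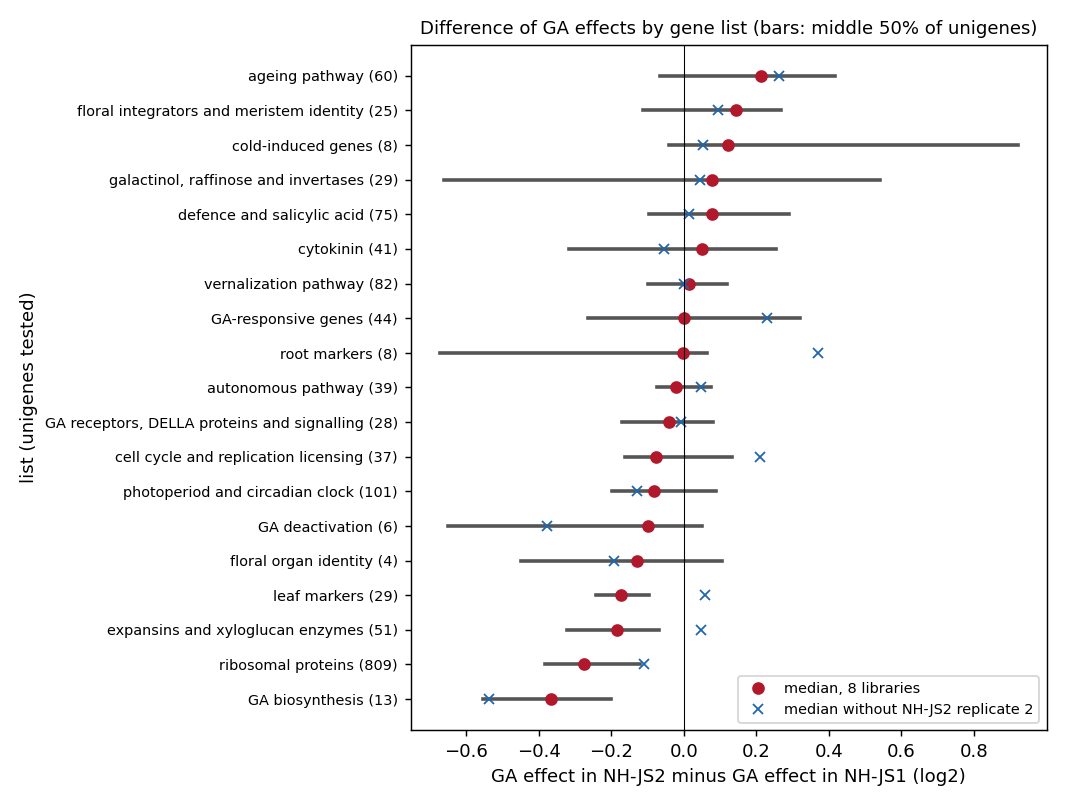
Difference of GA effects (log2, NH-JS2 minus NH-JS1) in 19 gene lists, with the number of unigenes tested in brackets. Red points are medians over 8 libraries, grey bars hold the middle 50% of unigenes, and blue crosses are medians without NH-JS2 replicate 2, which for leaf markers (-0.17 and 0.06) and for expansins and xyloglucan enzymes (-0.19 and 0.05), among others, lie on the other side of 0.

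Across all unigenes the GA effects of the lines, which share no library, were only loosely alike. Pearson's r over 65934 unigenes was 0.182 and Spearman's rho 0.242, and over the 12496 with a mean scaled count of at least 500 they were 0.364 and 0.447. Unigenes are not independent replicates, and the median standard error of a single effect was 0.186 in NH-JS2 and 0.181 in NH-JS1. The gap between the lines was wider with GA than without it for 21 of the 39 called unigenes (53.8%) and for 47.8% of all tested.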

How the data were processed

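RNA-seq libraries of whole shoots were analysed, 2 for each of NH-JS2_GA, NH-JS2, NH-JS1_GA and NH-JS1, grouped by line and treatment as labelled. Paired reads were quality-trimmed by the authors and aligned by Bowtie2 2.1.0 to sets of radish coding sequences, and raw counts per unigene were deposited. The submitters' processing notes also name TopHat, without a version. The deposited normalized counts, treated as a score because they were scaled per library and rounded, and the authors' log2 fold changes for their own comparisons were not used. How reads of near-identical sequences, or the strand, were handled is stated nowhere in those sources.

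Counts were analysed in R 4.3.3 with edgeR 4.0.16 (filterByExpr by group, TMM factors of 0.886 to 1.043, common dispersion 0.0171, quasi-likelihood F-test) and 1 mean per group. Benjamini-Hochberg adjustment ran over all 65934 unigenes or, for counts summed over unigenes with the same Arabidopsis match, over 16483 sums. Scaled counts are counts divided by the TMM-adjusted library size and multiplied by the mean library size. Counts at or near 1 were compared after subtracting 1, with exact 95% intervals that cover counting error only, or against a floor of 3 reads per library. DESeq2 1.42.0, RLE scaling, no filter, a replicate block, robust dispersion, 1 subtracted from every count, other thresholds and leaving out each library were tried, and the procedure was tested on simulated data.

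The genes named are, of the called unigenes, the 12 highest and 12 lowest differences among those whose mean level reached 50 scaled counts in any group, all called sums, 26 genes that the study singled out, and the member with the lowest p in each list. Any other called unigene, gene copy or list member was picked with its value in view. The comparison, the genes and the lists were chosen with earlier results of these data known. The deposited unigenes have no coordinates or sequences among the sources used here, so that none are shown.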

Additional observations from a re-analysis of the deposited data

Results flagged for a closer look

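The difference of GA effects between NH-JS2 and NH-JS1 passed the threshold, by the test of that difference itself, for 39 unigenes and 4 sums. Whether these differences came from GA or from other differences between the plants pooled for each group was not tested. With the larger GA effect in NH-JS2, the differences on the log2 scale were 8.58 for TBIU048083 (AT1G10000), 8.07 for TBIU076913, 4.95, 3.74 and 3.65 for TBIU027710, TBIU022910 and TBIU036727 (all AT3G17310), 2.79 for TBIU024603 (AT3G08030) and -5.28 for TBIU073630. They were -5.67, -5.65, -5.58, -5.52 and -5.42 for TBIU069267, TBIU069268, TBIU069269, TBIU041688 and TBIU069266 (all AT2G17280), -5.42 for TBIU069264 (AT1G14800), and -5.24 and -5.15 for TBIU069270 and TBIU069265. With the larger GA effect in NH-JS1 they were 6.75 for TBIU056732, 4.34 for TBIU018867 (AT4G03740), 4.25 for TBIU018052 (AT1G69870), -9.59 for TBIU071561, -6.29 for TBIU051987 (AT3G42170) and -5.08 for TBIU025189. The sums were 1.90 for AT3G08030, -2.29 for AT3G08950, -1.85 for AT5G01320 and -3.53 for AT5G12000.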

How the results depend on the processing

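All 39 called unigenes kept their sign under every alternative fit. DESeq2 called 62 unigenes and 23 sums, with 36 unigenes larger in NH-JS2 against 23 of edgeR's 39. An adjusted p of at most 0.01 with a log2 difference of at least 0.6 and a count of at least 500 left 6 unigenes and 1 sum, and a replicate block 37 unigenes and 2 sums. Correlations between groups that looked for pairing by replicate number were -0.0807 to 0.123. With 2 pools a group they cannot exclude a batch shared by replicates. The blocked sums of AT5G01320 and AT5G12000 were no longer called by edgeR (sum of AT5G01320, adjusted p = 0.07256, and sum of AT5G12000, 0.05843). Robust dispersion lost the calls of TBIU048083, TBIU056732, TBIU027710 and TBIU071561. Leaving out 1 library gave 22 (NH-JS1 replicate 2) to 56 (NH-JS2 replicate 2) called unigenes and 1 to 5 sums, and 19 of the 39 calls held in all 8 cases. For GA within NH-JS2 these counts were 25 to 310 (without NH-JS2 replicate 1), and for GA within NH-JS1 12 to 142. DESeq2 called 198 and 150. Estimates that were not called changed sign without 1 library. The sums ranged for SOC1 from -0.0021 to 0.70, FLC -0.21 to 0.051, VRN1 -0.061 to 0.12, KAO2 -0.93 to 0.12, GA20OX3 -1.81 to 0.30, GA2OX2 -0.34 to 0.82, GID1A -0.39 to 0.19, GNC -0.048 to 0.27, LHY -0.88 to 0.28, GI -0.37 to 0.14, TEM1 -0.70 to 0.20, CO -0.95 to 0.16, EXPA1 -0.67 to 0.57 and PIF4 -0.48 to 0.32. The unigenes ranged for TBIU065303 from -1.44 to 1.03, TBIU020397 -0.039 to 0.20, TBIU052309 -1.86 to 0.28, TBIU053461 -0.33 to 0.96, TBIU064472 -0.41 to 0.19, TBIU059114 -0.29 to 0.053, TBIU002252 -0.91 to 0.25, TBIU054300 -0.39 to 0.13, TBIU011903 -0.84 to 0.16, TBIU047519 -0.97 to 0.15, TBIU018148 -0.59 to 0.73 and TBIU064919 -0.53 to 0.29. The causes were not tested. The smallest difference called by edgeR was -1.42 (TBIU039234), and DESeq2 called smaller ones, such as TBIU010212 at -1.02 (DESeq2 adjusted p = 0.02375).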

Other observations

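Of the 24 unigenes that DESeq2 called and edgeR did not, 4 matched AT3G45100 (SETH2), an enzyme of the glycosylphosphatidylinositol anchor that fixes proteins to the plasma membrane. This gene and those that follow were chosen after their values were seen. As a sum, AT3G45100 had 3753 and 4041 counts in NH-JS2_GA, 3806 and 4257 in NH-JS2, 2702 and 2768 in NH-JS1_GA, and 1262 and 1498 in NH-JS1. The NH-JS2 groups overlapped and the NH-JS1 groups did not, with a difference of GA effects of -1.04 (SE 0.16, edgeR adjusted p = 0.2696). TPS21 (AT5G23960), a terpene synthase that makes sesquiterpenes, went the other way, with 1650 and 2061 counts in NH-JS2_GA, 1633 and 2035 in NH-JS2, 104 and 101 in NH-JS1_GA, and 348 and 266 in NH-JS1, a difference of 1.60 (SE 0.25, edgeR adjusted p = 0.2696). GAL1 (AT3G06580), a galactokinase, had 1977 and 1818 in NH-JS2_GA, 876 and 766 in NH-JS2, 815 and 978.5 in NH-JS1_GA, and 872 and 779 in NH-JS1, a difference of 1.09 (SE 0.18, edgeR adjusted p = 0.2948).

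Several matches of the called genes carry neighbouring Arabidopsis locus numbers. Of the 24 sums with an unadjusted p under 0.001, 9 (37.5%) lay between AT3G05000 and AT3G09999, which hold 336 of the 16483 sums tested (2.04%). All 9 had the larger GA effect in NH-JS2. A further 6 (25%) lay between AT5G00000 and AT5G19999, which hold 8.01% of the sums, and all 6 had the larger GA effect in NH-JS1. These windows were drawn after the loci were seen, and the order is that of Arabidopsis, not of radish.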
